A study of Homo sapiens with 10 samples.

Results

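Retinoic acid is made, carried, sensed and cleared by a small set of genes, and 10 of them were followed here: ALDH1A1, ALDH1A2 and ALDH1A3 (synthesis), CYP26A1 and CYP26B1 (clearance), CRABP1 and CRABP2 (carriage in the cell), and RARA, RARB and RARG (receptors). They were taken by name from the deposited gene count tables, which list 59453 genes, and all 10 were found. The set was selected on measured values, since ALDH1A2 was already known to differ between wild-type (WT) and knockout libraries of this series. Differences of ALDH1A2 between WT and a knockout, or between WT clones, are therefore described without a test.

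The libraries came from HAP1, a near-haploid human line derived from the chronic myeloid leukaemia line KBM-7. OGG1 removes 8-oxoguanine, an oxidised form of guanine, from DNA, and MUTYH removes adenine placed opposite it. Clones, the knockouts made with CRISPR-Cas9, were compared in 5 groups of 2 libraries: untreated WT (clones 2 and 11), MUTYH knockout (clones 7 and 8), OGG1 knockout (clones 1 and 22), the double knockout DKO (clones 4 and 14), and WT clones 2 and 11 collected 24 h after 100 µM H2O2. All were grown in IMDM with 10% serum. In the study's clone table both DKO clones descend from the same OGG1 knockout clone, and the p-values of comparisons with DKO do not account for this. Each library is 1 clone, so p-values of genotype comparisons measure the spread between clones. A clone's own state cannot be told apart from its genotype where 1 clone carries a difference. In the test between the WT clones, the 2 libraries of a clone are its untreated and its treated one. The p-values of that test therefore do not measure the spread between clones.

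Depth was nearly equal, from 22225091 to 22674964 counts a library. The OGG1 knockout had 27 counts of OGG1 RNA in clone 1 and 254 in clone 22. DKO, which also lacks OGG1, had 215 (clone 4) and 223 (clone 14). All libraries with intact OGG1 were higher, at 275 to 331 counts, but only OGG1 knockout clone 1 stood far below them. MUTYH RNA was lowest in DKO clone 14, at 50 counts. The other libraries with edited MUTYH had 83 to 106 counts, inside the 80 to 119 of those with intact MUTYH. Of the blood markers MPO and HBG1 had 0 counts in all libraries, SPI1 at most 1, PTPRC at most 3, GATA1 at most 5, CD33 1 to 11 and CD34 3 to 23. Of the epithelial markers CDH1 had at most 2 counts, EPCAM 3 to 66, KRT8 191 to 1021 and KRT18 618 to 1218, and of the mesenchymal ones PDGFRB had 4 to 31, COL1A1 342 to 1053 and VIM 4405 to 11317. Of the pluripotency markers NANOG had at most 2 counts, LIN28B 1376 to 2235 and POU5F1 12718 to 24850. The first component of genotype-centred expression held 49.9% of its variance over the 8 untreated libraries. Centring gives the 2 clones of a genotype equal and opposite scores, so each side of this component holds 1 clone of each genotype by construction: clones 2 (WT), 8 (MUTYH knockout), 22 (OGG1 knockout) and 14 (DKO) on the positive side and their partners on the other. Levels did not overlap between the sides in 29.2% of the 17881 genes tested, a share counted on the expression that set the sides. Members and listed genes were left out when the sides were set, and 0 of the 9 members that passed the expression filter had levels that did not overlap. RARG came closest, with 28.5 CPM as the lowest value on the positive side and the highest on the other. Within every genotype ALDH1A3, CRABP1 and RARG were higher, and CYP26A1 lower, in the clone on the positive side. The other tested members went both ways, and the share of all genes with such a pattern was not counted.

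Vitamin A (retinol) is oxidised to retinaldehyde, which ALDH1A enzymes convert to retinoic acid. CRABP proteins carry the acid to the nucleus or to CYP26 enzymes, which degrade it. In the nucleus it binds RAR receptors, which pair with RXR receptors on DNA elements made of direct repeats of a short half-site. RARB and CYP26A1 are among the best known genes switched on by retinoic acid, and ALDH1A2 is the main source of the acid in the early embryo.

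To look for this element, the RefSeq start-site windows (GRCh38.p14, 250 bases before to 50 after a start) were searched on both strands for a pair of half-sites separated by 5 bases (DR5), where a half-site is AGGTCA, its variant AGTTCA, or their forms with a G first, which are GGGTCA for the former and GGTTCA for the latter. All 10 genes had a window, 17 windows in all. A DR5 was found in 31 of 35116 windows (0.0883%), and among the members only in 1 window each of RARB and CYP26A1. The same half-sites separated by 1 base were found in 0.131% of all windows and by 2 bases in 0.0399%, and in no member window. The 100 bases before the start are shown for both genes, in the direction of the gene, with the match in capitals. The RARB stretch is chr3:25428163-25428262 and the CYP26A1 stretch chr10:93073793-93073892, both on the plus strand.
RARB: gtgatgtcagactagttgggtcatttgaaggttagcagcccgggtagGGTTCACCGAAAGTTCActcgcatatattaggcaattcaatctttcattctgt
CYP26A1: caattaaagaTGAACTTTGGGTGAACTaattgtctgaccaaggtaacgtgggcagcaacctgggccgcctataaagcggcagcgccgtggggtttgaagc
The RARB match reads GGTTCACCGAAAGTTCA, from 53 to 37 bases before the start. The CYP26A1 match lies on the other strand, where it reads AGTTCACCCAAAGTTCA, from 90 to 74 bases before the start. A match describes letters only and does not show that a receptor binds there. RARB had 4 windows and CYP26A1 2, so each position is counted from 1 of several annotated starts. Both matches lie inside the annotated span of the gene, which begins at 24687887 for RARB and 93073475 for CYP26A1. Which start these cells used was not tested.

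Levels between genes were compared per length, as CPM (a gene's counts scaled to a common library size, with TMM factors) per kilobase of exon. By the median of 10 libraries the order was CRABP2 (10.8), RARG (5.45), RARA (5.24), CYP26B1 (4.36), ALDH1A3 (1.58), CRABP1 (1.34), CYP26A1 (0.609), ALDH1A2 (0.282), RARB (0.0421) and ALDH1A1 (0.0318 CPM per kb). The ranges of RARG (3.86 to 6.76), RARA (4.51 to 6.57) and CYP26B1 (2.77 to 5.6) overlapped, as did those of ALDH1A3 (0.891 to 2.4) and CRABP1 (0.481 to 2.8). ALDH1A2 had no fixed place in this order, since it ran from 0.0114 to 9.23 CPM per kb.

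**Figure D1:**
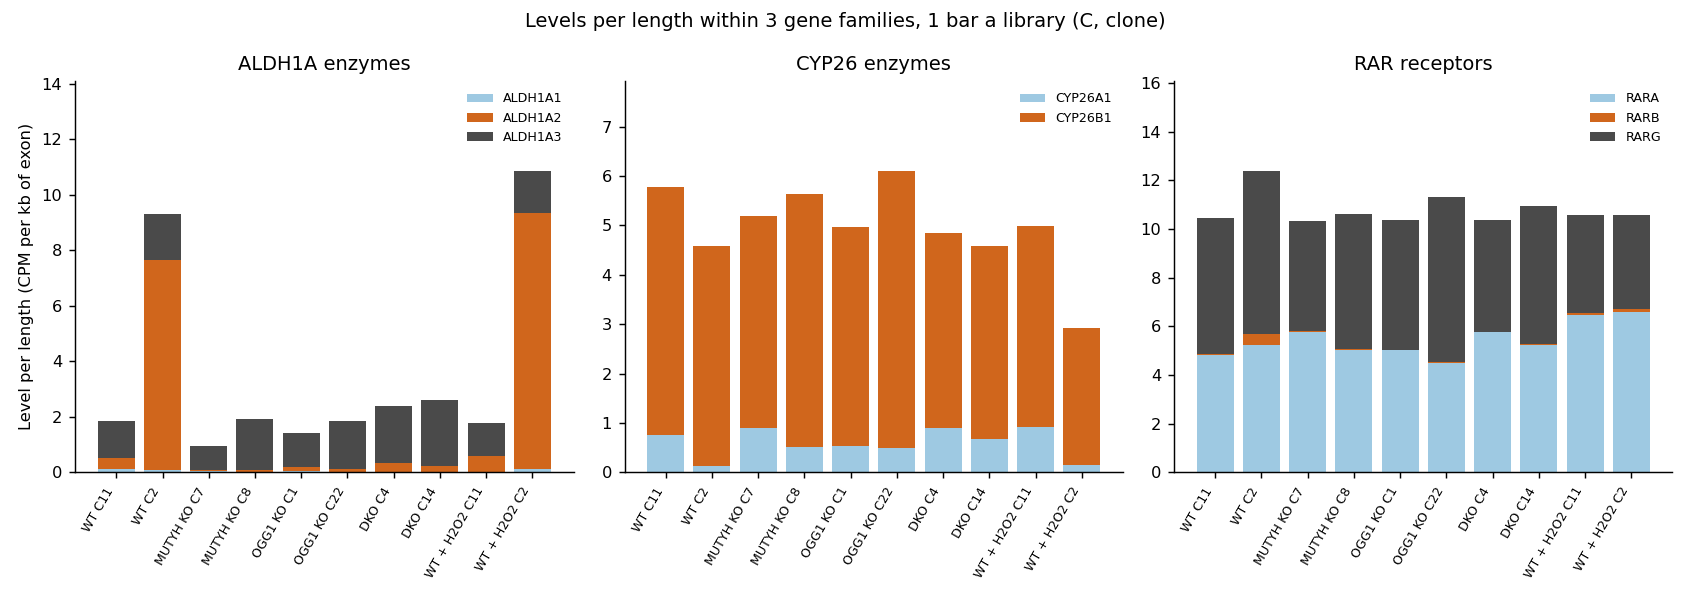
Levels in CPM per kb of exon (linear, from 0) of the ALDH1A, CYP26 and RAR families, stacked by gene, with 1 bar for each of the 10 libraries (C, clone). ALDH1A2 makes up 81.4% of the ALDH1A level in WT clone 2 and 85.1% after H2O2, against 1.17% to 32.6% in the other 8 libraries, while CYP26B1 and the pair RARA and RARG fill most of their families in each library.

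ALDH1A2 (chromosome 15, 57953424 to 58497866, minus strand) varied most of the 10 genes. WT clone 11 had 3.06 CPM (69 counts) and WT clone 2 had 61.4 CPM (1385 counts). In the MUTYH knockout it had 0.0923 CPM (clone 7, 2 counts) and 0.709 CPM (clone 8). The OGG1 knockout had 1.17 and 0.844 CPM (clones 1 and 22), and DKO 2.87 and 1.72 CPM (clones 4 and 14). After H2O2 clone 11 had 4.71 CPM and clone 2 had 75 CPM. Both libraries of WT clone 2 thus stood above all others, while untreated WT clone 11 and DKO clone 4 did not differ beyond counting error, with 69 counts (95% Poisson interval 53.7 to 87.3) against 64 (49.3 to 81.7). In these bulk libraries fewer cells with the RNA and less RNA per cell cannot be told apart. WT clone 2 exceeded clone 11 by 20.1 times without H2O2 and by 15.9 times with it. The gene overlaps AQP9 and LIPC on the opposite strand, which had no counts in any library.

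The other synthesis genes did not share this pattern. ALDH1A3 (chromosome 15, 100877714 to 100916626, plus strand) ranged from 4.76 CPM in MUTYH knockout clone 7 to 12.8 CPM in DKO clone 14. Its group means were 8.05 ± 1.10 CPM in WT, 7.28 ± 3.56 in the MUTYH knockout, 7.85 ± 1.96 in the OGG1 knockout, 11.8 ± 1.35 in DKO and 7.19 ± 1.14 in treated WT (SD, n = 2 each). ALDH1A1 (chromosome 9, 72900671 to 73080442, minus strand) had at most 8 counts in a library and 0 in 5 of 10, where the 95% Poisson interval of the count reaches 3.69, and it did not pass the filter of any main comparison.

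The clearance enzymes differed from each other. CYP26A1 (chromosome 10, 93073475 to 93077885, plus strand) had 2.22 CPM (50 counts) in WT clone 11 and 0.399 CPM (9 counts) in clone 2. It had 2.68 and 1.51 CPM in the MUTYH knockout (clones 7 and 8), 1.58 and 1.47 CPM in the OGG1 knockout (clones 1 and 22) and 2.64 and 2.03 CPM in DKO (clones 4 and 14). After H2O2 clone 11 had 2.73 CPM and clone 2 had 0.455 CPM. Both libraries of WT clone 2 lay below the other 8, whose lowest was 1.47 CPM. CYP26B1 (chromosome 2, 72129238 to 72147862, minus strand) was the more abundant enzyme, at 13.4 to 27.1 CPM, and its lowest library was treated WT clone 2.

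Of the carriers, CRABP2 (chromosome 1, 156699606 to 156705816, minus strand) fell into a lower and a higher set of libraries that followed genotype only in part. WT was in the lower set and the OGG1 knockout in the higher, while the MUTYH knockout and DKO were split. It had 9.66 and 7.5 CPM in WT (clones 11 and 2) and 11.3 and 5.68 CPM in treated WT. MUTYH knockout clone 8 was also low, at 7.36 CPM, but clone 7 had 28.2 CPM. Both OGG1 knockout clones were high, at 27.1 CPM (clone 1) and 27.0 CPM (clone 22), and DKO had 12.1 and 22 CPM (clones 4 and 14). Within the MUTYH knockout the clones were thus farther apart than the means of WT and the OGG1 knockout. CRABP1 (chromosome 15, 78340353 to 78348225, plus strand) was low, at 0.462 to 2.69 CPM, from 10 to 61 counts.

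Of the receptors, RARB (chromosome 3, 24687887 to 25597932, plus strand) was the rarest and RARA and RARG the abundant ones. RARB had 0.399 CPM (9 counts) in WT clone 11 and 4.48 CPM (101 counts) in clone 2. It had 0.646 and 0.222 CPM in the MUTYH knockout (clones 7 and 8), 0.0452 and 0.355 CPM in the OGG1 knockout (clones 1 and 22) and 0.269 and 0.397 CPM in DKO (clones 4 and 14), or 1 to 14 counts a library. After H2O2 clone 11 had 0.528 CPM and clone 2 had 1.5 CPM. Both libraries of WT clone 2 lay above the other 8, whose highest was 0.646 CPM. RARA (chromosome 17, 40309180 to 40357643, plus strand) ranged from 21.4 to 31.1 CPM, with the treated libraries highest at 30.7 and 31.1 CPM. RARG (chromosome 12, 53210567 to 53232980, minus strand) ranged from 19.8 to 34.7 CPM, with the treated libraries lowest at 20.8 and 19.8 CPM.

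**Figure D2:**
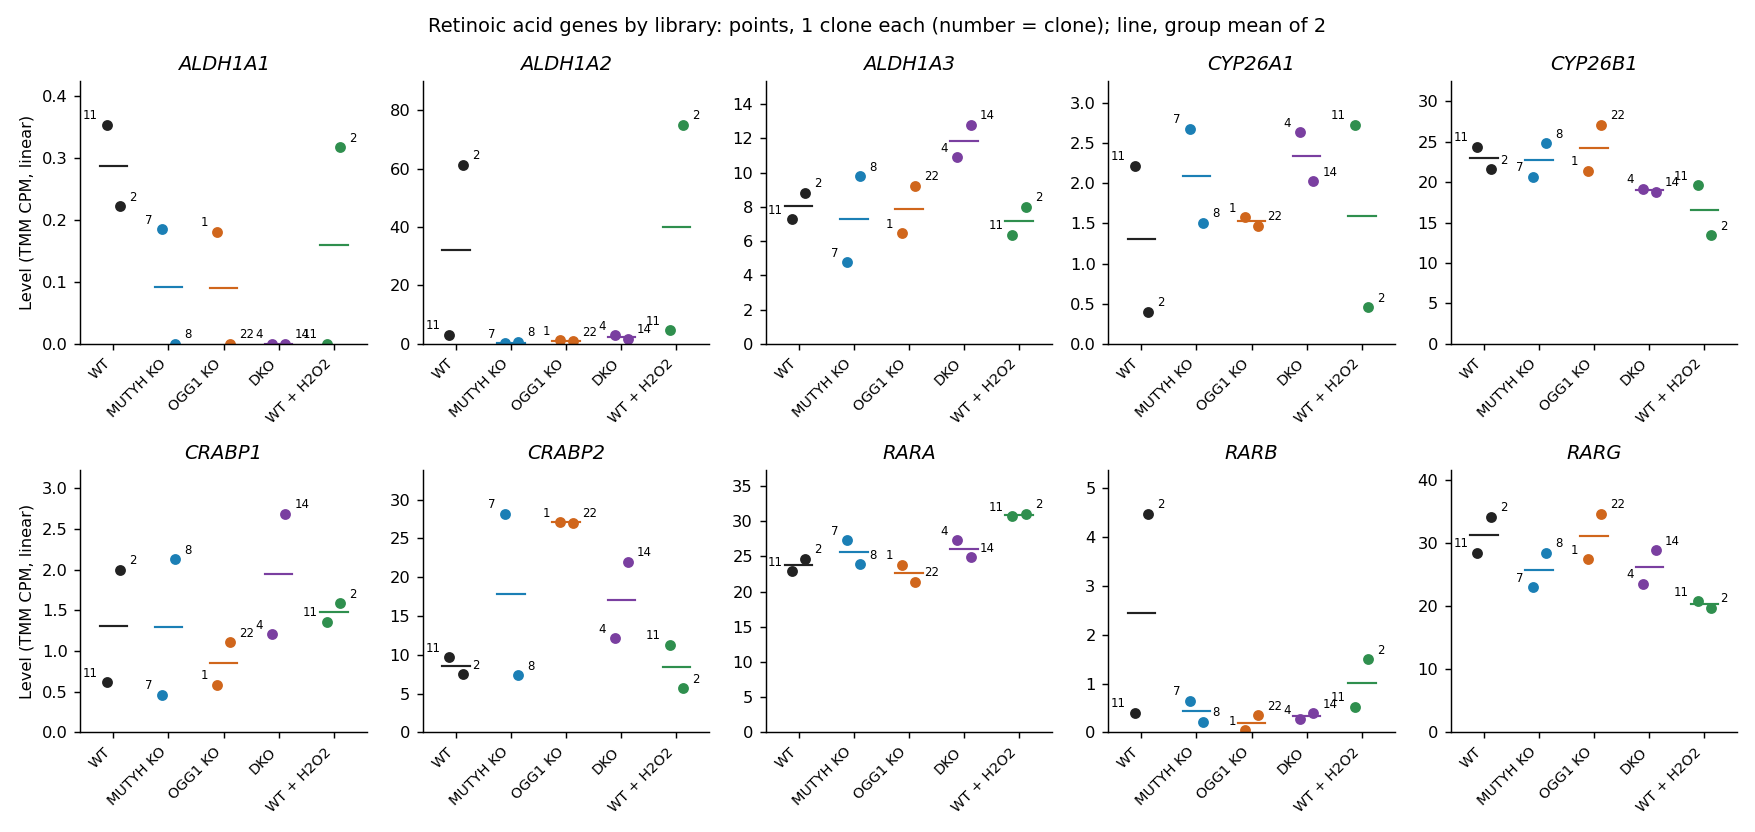
Level in TMM CPM (linear axes from 0) of each of the 10 genes in 5 groups, with 1 point for each library, its clone number beside it and a line at the mean of 2 libraries. WT clone 2 stands apart from WT clone 11 for ALDH1A2 (61.4 and 3.06 CPM), RARB (4.48 and 0.399 CPM) and CYP26A1 (0.399 and 2.22 CPM), with and without H2O2.

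To set the response genes beside ALDH1A2, the libraries of WT clone 2 were compared with those of WT clone 11, with H2O2 as a term of the fit. The call used the study's criterion, which asks for P no larger than 0.05 before adjustment together with an absolute log2 fold change above 1, and 6.15% of 16997 genes met it. RARB was higher in clone 2 by a log2 fold change of 2.55 ± 0.46 (SE, edgeR quasi-likelihood adjusted p = 0.00319). CYP26A1 was lower in clone 2, with a log2 fold change of -2.52 ± 0.39 (adjusted p = 0.00107). These were the only calls among the 8 members tested, and both also passed the adjusted p, as 9.31% of all genes did. The 2 genes with a DR5 match near a start thus differed in opposite directions, the receptor gene higher and the clearance gene lower in the clone with most ALDH1A2 RNA. ALDH1A2 itself was 4.15 higher on the log2 scale. CRABP2 was 0.67 ± 0.22 lower on this scale (adjusted p = 0.0745), CYP26B1 -0.36 ± 0.16 (0.214), CRABP1 0.88 ± 0.41 (0.223), and ALDH1A3, RARA and RARG were at 0.30, 0.07 and 0.10.

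This contrast rests on 2 libraries of 1 clone against 2 of another, with 1 residual degree of freedom before edgeR shares the spread across genes. Its p-values measure the spread between libraries of these 2 clones only. Without the term for H2O2 the adjusted p of RARB was 0.0595 and that of CYP26A1 0.0165. Both genes are near the detection limit in the clone with the lower level, at 9 to 12 counts for RARB and 9 to 10 for CYP26A1. They passed the filter mainly through the other clone, with 101 and 33 counts of RARB in clone 2 and 50 and 62 of CYP26A1 in clone 11. The clones were compared because ALDH1A2 was known to be highest in clone 2, so these calls only describe the 2 clones. A filter of at least 10 counts in every library left both genes untested. Over all genes, 6.82% had both WT clone 2 libraries above the other 8, as ALDH1A2 and RARB did, and 6.58% had both below, as CYP26A1 did. WT clone 2 is also the WT clone on the positive side of the first component, and the contrast cannot tell clone and side apart. In each knockout CYP26A1 was also lower on that side, but the Poisson intervals of the 2 counts overlapped each time. It had 1.51 against 2.68 CPM in the MUTYH knockout (34 and 58 counts). The values were 1.47 against 1.58 CPM in the OGG1 knockout (33 and 35 counts) and 2.03 against 2.64 CPM in DKO (46 and 59 counts). How many of all genes keep 1 direction in every genotype was not counted. RARB was higher on that side in the OGG1 knockout and DKO and lower in the MUTYH knockout.

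**Figure D3:**
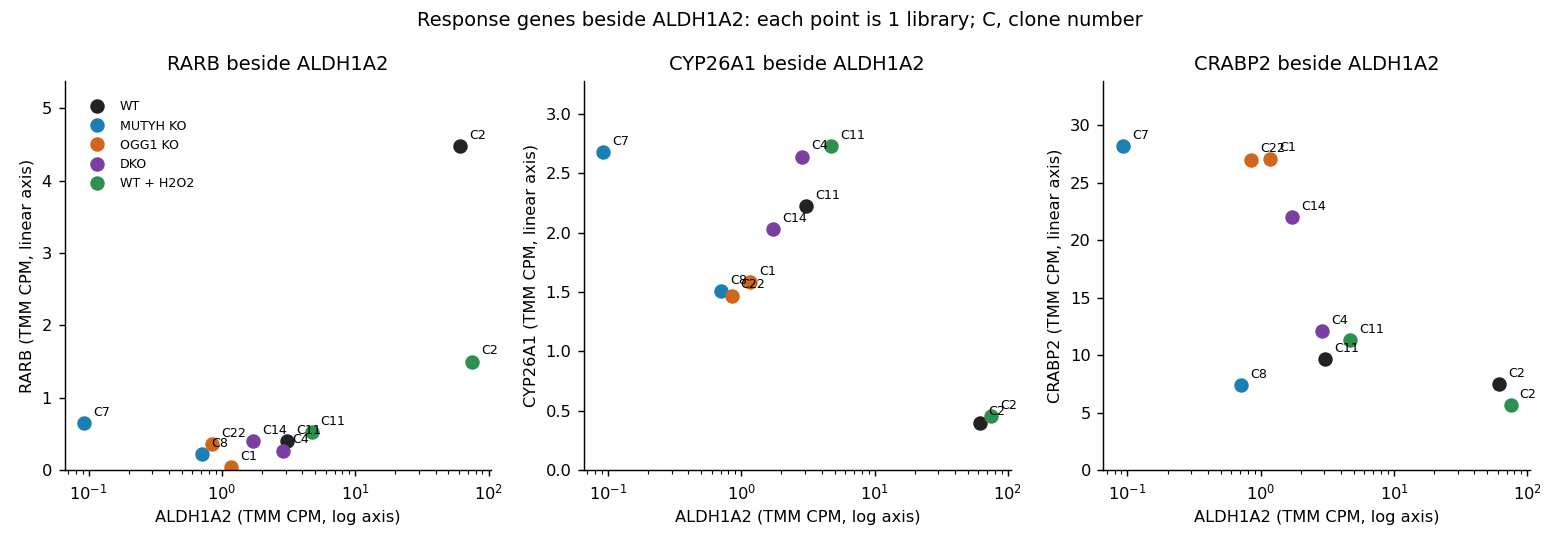
RARB, CYP26A1 and CRABP2 (TMM CPM, linear axes) against ALDH1A2 (TMM CPM, log axis), with 1 point for each of the 10 libraries, coloured by group and marked by clone. The 2 libraries of WT clone 2, at 61.4 and 75 CPM of ALDH1A2, are highest for RARB and lowest for CYP26A1, and among the other 8 libraries RARB stays between 0.0452 and 0.646 CPM.

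Across the 10 libraries the Pearson correlation of log2 CPM with ALDH1A2 was 0.702 for RARB and -0.782 for CYP26A1, but over the 8 libraries other than WT clone 2 it was -0.098 and 0.202. For CRABP2 it was -0.734 over 10 libraries and -0.503 over those 8. These are descriptions, since 4 of the libraries share 2 clones and the clone 2 libraries form a cluster of their own.

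The 5 genes with the pattern most like ALDH1A2 over the 10 libraries were FOLH1 (r = 0.962), RIMS2 (0.958), ABL2 (0.946), NEFL (0.945) and MECOM (0.945), of 17880 genes. FOLH1 had 0.62 CPM in untreated WT clone 11 and 12 CPM in clone 2, and NEFL 0.487 and 16.2 CPM. RARB ranked 626 in this order. Over the 8 libraries other than WT clone 2 none of those 5 genes stayed among the first 5, which were led by IL22RA1 (r = 0.956), and over the 8 untreated libraries 1 did (FOLH1, r = 0.939).

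Each knockout was then compared with WT in 1 fit of the 8 untreated libraries. ALDH1A2, given without a test, was lower in all 3, by log2 fold changes of -6.30 in the MUTYH knockout, -4.98 in the OGG1 knockout and -3.80 in DKO. Without WT clone 2 the values were -2.92, -1.60 and -0.42. In the MUTYH knockout 0 of the other 8 tested members were called, also at the unadjusted P alone, against 1.19% of all genes. These shares over all genes themselves moved with single libraries, from 212 genes called in the MUTYH knockout to 702 without WT clone 11 and 117 without WT clone 2. The largest change was that of RARB, at -2.48 ± 1.13 (edgeR adjusted p = 1), which was called in DESeq2's Wald test.

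In the OGG1 knockout 2 of 8 members were called, against 1.67% of all genes. CRABP2, which hands retinoic acid to the receptors, was higher by 1.66 ± 0.58 on the log2 scale (edgeR adjusted p = 0.999). RARB was lower, at -3.56 ± 1.24 (adjusted p = 0.999). In DKO only RARB was called, at -2.85 ± 1.16 (adjusted p = 1), against 1.77% of all genes. No member passed the adjusted p in any of the 3 comparisons.

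RARB depended on WT clone 2. It passed the filter of this fit mainly through that library (101 counts) and MUTYH knockout clone 7 (14 counts). WT clone 11 had 9 counts, the OGG1 knockout 1 and 8, and DKO 6 and 9. Both calls of RARB therefore only describe the high level in WT clone 2. Without WT clone 2 the log2 fold change of RARB was 0.11 in the MUTYH knockout, -0.98 in the OGG1 knockout and -0.26 in DKO, and neither call held. The calls were also lost, with a direction that stayed negative, without OGG1 knockout clone 1 (-2.77) and without either DKO clone (-2.61 and -3.16). CRABP2 in the OGG1 knockout kept its size, from 1.48 to 1.85 over the 4 fits that left out 1 library of the contrast, but the call was lost in all 4. Without WT clone 11 CYP26A1 was called higher in the MUTYH knockout (2.38), the OGG1 knockout (1.92) and DKO (2.54), and CRABP1 turned from -0.62 to 0.44 in the OGG1 knockout without WT clone 2. RARA, RARG, CYP26B1 and ALDH1A3 lay between -0.29 and 0.56 in the 3 comparisons.

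**Figure D4:**
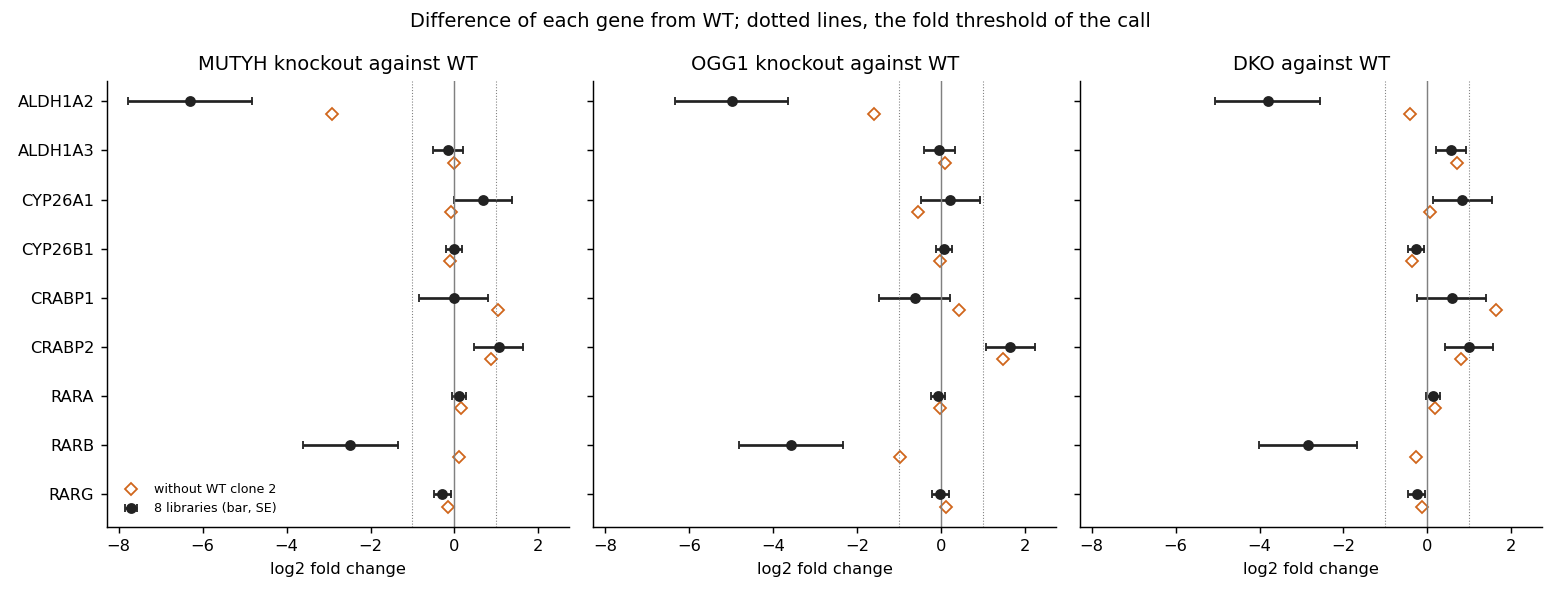
Log2 fold change against WT of the 9 genes that passed the filter, for each knockout. Black points are the fit of 8 libraries with bars of 1 SE, orange diamonds the fit without WT clone 2, and dotted lines the threshold of 1. The bars of ALDH1A2 are not to be read as a test, since its difference led to the choice of the genes. ALDH1A2 and RARB lie far below 0 with WT clone 2 (RARB -2.48, -3.56 and -2.85) and near 0 or less far below without it (0.11, -0.98 and -0.26), while CRABP2 moves little (1.66 to 1.48 in the OGG1 knockout).

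Comparisons among the knockouts leave WT clone 2 out of the contrast. None of the 9 tested members was called in DKO against the OGG1 knockout, DKO against the MUTYH knockout or the OGG1 against the MUTYH knockout, and none was at an unadjusted P under 0.05, where the criterion called 1.44%, 1.99% and 1.43% of all genes. ALDH1A2 was 2.50 ± 1.41 higher on the log2 scale in DKO than in the MUTYH knockout, 1.32 ± 1.47 higher in the OGG1 than in the MUTYH knockout and 1.18 ± 1.27 higher in DKO than in the OGG1 knockout (edgeR adjusted p = 1 for each). A fit with library side as a block, set from these same libraries, called 2.06% of all genes. In it CRABP1 was called higher in DKO than in the OGG1 knockout, at 1.18 ± 0.39 (edgeR adjusted p = 0.636).

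The effect of MUTYH loss was tested for a difference between cells with and without OGG1. None of 8 members was called, against 2% of all genes, and none was at an unadjusted P under 0.05. The nearest was CRABP2, at -1.72 ± 0.81 (edgeR adjusted p = 1), which was called in DESeq2's Wald test. RARB was at 3.20 ± 1.78 and at 0.61 without WT clone 2.

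H2O2 was compared with no treatment in the 4 WT libraries. No member was called, against 1.75% of all genes, and 1 of 9 was at an unadjusted P under 0.05. That was RARG, at -0.64 ± 0.17 (edgeR adjusted p = 0.638). The treated and untreated libraries come from the same 2 clones, and with clone as a replicate block, which called 2.78% of all genes, RARG was at -0.63 ± 0.15 with an adjusted p of 0.0447, a threshold that 2.57% of all genes passed. It was lower in both clones, by 0.79 (clone 2) and 0.46 (clone 11) on the log2 scale. Its treated range was 19.8 to 20.8 CPM and its untreated range 28.5 to 34.2 CPM. In the paired fit RARB was called as well, at -1.01 ± 0.44 (adjusted p = 0.226), but it fell by 1.58 in clone 2 and was 0.41 higher in clone 11.

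RARA was higher after H2O2 in both clones, at 0.37 ± 0.14 in the paired fit (edgeR adjusted p = 0.169), and ALDH1A2 likewise, at 0.39 ± 0.15 (adjusted p = 0.182). A fit without untreated WT clone 2 gave ALDH1A2 3.7, but it set both treated clones against clone 11 and so held the clone difference. Within clones ALDH1A2 changed by 0.29 (clone 2) and 0.62 (clone 11) on the log2 scale. CYP26B1 was lower in both, at -0.50 ± 0.16 (adjusted p = 0.121). CYP26A1 (0.26 ± 0.37), CRABP1 (0.28 ± 0.41), CRABP2 (-0.08 ± 0.22) and ALDH1A3 (-0.17 ± 0.20) had changes within 1 SE of 0. The share of counts from mitochondrial genes was 2.995% and 3.379% in the treated libraries and 5.141% and 5.017% in the untreated WT libraries (clones 11 and 2), and its part in these values was not tested.

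**Figure D5:**
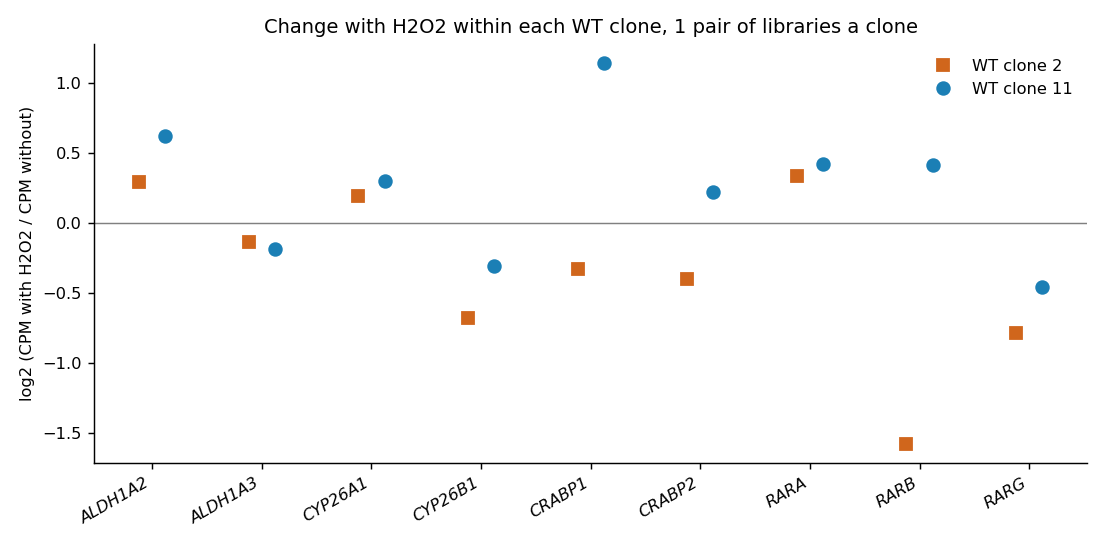
Log2 ratio of CPM with H2O2 to CPM without, for the 9 tested genes, in WT clone 2 (squares) and WT clone 11 (circles), with 1 pair of libraries a clone. RARG and CYP26B1 lie below 0 and RARA and ALDH1A2 above 0 in both clones, whereas RARB (-1.58 and 0.41) and CRABP1 (-0.33 and 1.14) lie on opposite sides.

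The other genes of the pathway were taken from 5 lists with 68 genes, of which 67 were in the tables and 42 passed the filter of the genotype fit. The lists hold retinol uptake and storage, retinol and retinaldehyde oxidation and reduction, other acid synthesis and clearance, receptor partners, and genes known to respond to retinoic acid. Of the most abundant listed genes, the fatty acid and retinoid carrier FABP5 had 60.8 to 119 CPM, the retinol-binding protein receptor STRA6 3.27 to 19.6 CPM, the reductase RDH11 85.5 to 156 CPM, the alcohol dehydrogenase ADH5 121 to 163 CPM, and the coactivators EP300 and CREBBP 171 to 258 and 131 to 251 CPM. CYP2S1 (12.5 to 38.0 CPM), CYP1B1 (0.132 to 8.25 CPM), MEIS2 (36.7 to 55.8 CPM) and HOXB2 (15.0 to 26.6 CPM) led the other lists.

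Between the WT clones 4 of 40 tested listed genes (10%) were called, 1 higher and 3 lower in clone 2, beside 6.15% of all genes. FABP5 (0.58 ± 0.14) and the homeobox gene MEIS1 (0.58 ± 0.15) also passed edgeR's adjusted p with a smaller fold (0.0184 and 0.0315), which made 6 of 40 beside 9.31% of all genes. STRA6 was lower, at 3.27 and 4.12 CPM in clone 2 against 8.23 and 9.79 CPM in clone 11 (log2 fold change -1.29 ± 0.22, edgeR adjusted p = 0.00224). CYP1B1, which can oxidise retinol and retinaldehyde, was lower, at -1.30 ± 0.25 (adjusted p = 0.0046), and RET, a receptor tyrosine kinase, at -1.39 ± 0.19 (adjusted p = 0.000359). GBX2, a homeobox gene, was higher by 2.10 ± 0.44 (adjusted p = 0.00855). The 20 genes listed as responsive gave 13 tested, 1 called higher and 1 lower (15.4%, beside 6.15% of all genes), with a median log2 fold change of 0.35 beside 0 over all genes.

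Against WT the listed genes gave 0 calls in the MUTYH knockout, 2 in the OGG1 knockout (4.8%) and 1 in DKO (2.4%), of 42 tested, beside 1.19%, 1.67% and 1.77% of all genes. CYP1B1 was lower in the OGG1 knockout, at 0.452 and 0.488 CPM against 6.47 and 2.26 CPM in WT (-3.20 ± 1.25, edgeR adjusted p = 0.999), and PLAAT4, also called RARRES3 for its response to retinoids, was lower, at -1.79 ± 0.47 (adjusted p = 0.999). The adhesion gene ICAM1 was higher in DKO, by 1.57 ± 0.63 (adjusted p = 1), with 7.43 CPM in clone 4 and 2.16 CPM in clone 14. Among the knockouts, CYP1B1 (-3.66), PLAAT4 (-1.33) and the retinol dehydrogenase RDH16 (1.94) were called in the OGG1 against the MUTYH knockout (7.1% of 42, beside 1.43%), PLAAT4 (1.36) and ICAM1 (1.5) in DKO against the OGG1 knockout (4.8%, beside 1.44%), and ICAM1 (1.77) in DKO against the MUTYH knockout (2.4%, beside 1.99%). GBX2 (4.08) and PLAAT4 (1.82) were called in the test of MUTYH loss with against without OGG1 (4.8%, beside 2%). No listed gene passed the adjusted p in these comparisons. Several of these calls rest on few counts. RDH16 had 8 and 20 counts in the OGG1 knockout (clones 1 and 22) and 4 and 3 in the MUTYH knockout (clones 7 and 8). In the OGG1 knockout PLAAT4 had 15 and 10 counts, CYP1B1 10 and 11, and GBX2 4 in each clone. Fits that leave out a library are not given for the listed genes.

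With library side as a block the listed calls of 4 of these comparisons grew. The MUTYH knockout gained CDX2, a homeobox gene, at -1 ± 0.29 against WT (edgeR adjusted p = 0.997), which made 1 of 42 beside 1.78% of all genes. The OGG1 knockout gained STRA6, at 1.03 ± 0.23 (adjusted p = 0.675), which made 3 of 42 beside 2.43%. DKO against the OGG1 knockout gained GBX2, at 2.93 ± 1.15 (adjusted p = 0.648), which made 3 of 42 beside 2.06%. The test of MUTYH loss gained STRA6 (-1.34), CDX2 (1.26) and ICAM1 (1.57), which made 5 of 42 beside 3.17%. No listed gene passed the adjusted p with this block.

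After H2O2 0 of 40 listed genes were called, beside 1.75% of all genes. With clone as a replicate block GBX2 was called, at 1.06 ± 0.43 (edgeR adjusted p = 0.192), which made 1 of 40 beside 2.78%. CYP2S1, a cytochrome P450 that can metabolise retinoic acid, passed the adjusted p in that fit with a fold below the criterion, at -0.78 ± 0.16 (adjusted p = 0.0264), beside 2.57% of all genes. It had 25.2 and 22.4 CPM in the untreated and 15.5 and 12.5 CPM in the treated libraries (clones 11 and 2).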

How the data were processed

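RNA of HAP1 clones was sequenced and read counts per gene were deposited by the authors as raw counts, with no normalization. The submitters' processing notes name FastQC 0.11.9, HISAT2 2.2.1, R 4.2.2 and edgeR 3.42.4, and GRCh38. Whether counting used strand was not given in the sources used here, so reads of antisense partners cannot be told apart. Groups came from the labels. From the deposited counts, edgeR 4.0.16 in R 4.3.3 (quasi-likelihood F test, two-sided, legacy estimates, TMM scaling, filterByExpr) was fitted over all genes, and P was adjusted by Benjamini-Hochberg over all genes tested. SE is the log2 fold change over the square root of F. DESeq2 1.42.0 was an alternative. Fold changes are log2, and CPM uses TMM library sizes. Intervals of counts cover counting error only. Exon lengths and positions are from GENCODE on GRCh38. Scripts were tested on simulated counts. WT clones pair treated and untreated libraries: the clone differences correlated at r = 0.681 over 16997 genes.

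The members and lists were chosen with earlier results of these data known. Named genes are all 10 members, each listed gene called in a comparison (with or without a block) or past its adjusted p, the 2 listed genes of each list with the highest mean CPM, the overlapping genes AQP9 and LIPC, the edited genes, and the 5 genes most correlated with ALDH1A2. Alternatives were DESeq2 size factors, DESeq2's Wald test, edgeR 4 quasi-likelihood, no filter, at least 10 counts in every library, library side or clone as a block, fits of 2 groups and leaving out each library.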

Additional observations from a re-analysis of the deposited data

Results flagged for a closer look

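In 3 genes the change after H2O2 went in opposite directions in the 2 WT clones, and the difference was not tested since each clone has 1 pair of libraries. RARB fell by 1.58 on the log2 scale in clone 2 and was 0.41 higher in clone 11, so that the change in clone 2 minus that in clone 11 was -1.98. For CRABP1 the changes were -0.33 and 1.14, a difference of -1.46. For CRABP2 they were -0.40 and 0.22, a difference of -0.62. RARB in clone 11 rests on 9 and 12 counts, and CRABP1 in clone 11 on 14 and 31 counts.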

How the results depend on the processing

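The number of members called depended on single libraries. Leaving out each library in turn gave 0 to 2 members called in the MUTYH knockout against WT, 0 to 2 in the OGG1 knockout, 0 to 2 in DKO, 0 to 1 in DKO against the MUTYH knockout, 0 to 1 in the OGG1 against the MUTYH knockout, 0 to 2 in the test of MUTYH loss with against without OGG1 and 0 to 1 after H2O2. Added calls were RARB and CYP26A1 without WT clone 11 (also in the MUTYH loss test) and CRABP2 or ALDH1A3 without a MUTYH knockout clone. The MUTYH loss test added CRABP2 without DKO clone 14. After H2O2 RARB passed without untreated WT clone 11 and ALDH1A2 without clone 2, in fits that mix clone and treatment. Without a filter 1 member was called in the MUTYH knockout (RARB), 2 in DKO (RARB and ALDH1A1), 1 in DKO against the MUTYH knockout (ALDH1A2) and 1 in the test of MUTYH loss (CRABP2). With at least 10 counts in every library 1 was called in the OGG1 knockout, 0 in DKO and 0 between the WT clones, since RARB, and between the clones also CYP26A1, was not tested. Fits of 2 groups called 1 in the OGG1 knockout and 0 in DKO, of 7 tested, since RARB did not pass their filter. DESeq2's Wald test called 1 in the MUTYH knockout (RARB) and 1 in the test of MUTYH loss (CRABP2). Library side as a block called 1 in DKO against the OGG1 knockout (CRABP1), and clone as a replicate block 1 after H2O2 (RARB). The log2 fold change of CRABP2 in DKO against the MUTYH knockout, -0.07, ran from -0.74 to 1.22 over these fits, and it turned to a call of 1.22 without MUTYH knockout clone 7. Other causes of these shifts were not tested. Over 846 pairs of member and setting, 787 kept their side of the threshold and 788 their direction. Leave-one-out fits between the WT clones have no residual degrees of freedom and give values only, from 1.5 to 3.47 for RARB and -2.57 to -2.46 for CYP26A1.

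Genes called over the whole table moved by more than 1.5 times with the filter: against WT, the MUTYH knockout had 212 calls, 532 without a filter and 86 with at least 10 counts in every library, the OGG1 knockout 299, 692 and 123, and DKO 317, 705 and 134. In the same order, DKO against the OGG1 knockout had 258, 552 and 111, DKO against the MUTYH knockout 355, 669 and 151, the OGG1 against the MUTYH knockout 256, 490 and 101, and the test of MUTYH loss 358, 719 and 218. Between the WT clones at least 10 counts in every library gave 594 against 1045. Single libraries moved them too: without WT clone 11 the 3 counts against WT were 702, 806 and 673, without WT clone 2 they were 117, 165 and 260, and they were 457 in the MUTYH knockout without clone 8 and 597 in the OGG1 knockout without clone 1. The OGG1 against the MUTYH knockout went from 256 to 473 without MUTYH knockout clone 7 and 532 without OGG1 knockout clone 1, and the test of MUTYH loss from 358 to 795 without WT clone 11, 216 without WT clone 2 and 646 without MUTYH knockout clone 8. With library side as a block the MUTYH knockout had 318 calls and the test of MUTYH loss 567. After H2O2 the clone block gave 473 against 298, no filter 510, at least 10 counts 195 and DESeq2's Wald test 154, and leaving out untreated WT clone 2 gave 497. The shares over all genes beside the members rest on these counts. Depth limits CYP26A1 and CRABP1, with at most 62 and 61 counts, RARB, with 1 to 14 counts outside WT clone 2, and ALDH1A1, with at most 8.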
